A study of Mus musculus with 22 samples.

Results

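The genes described here are 9 that encode proteins known from the visceral endoderm, the yolk sac and the fetal liver: Afp, Alb, Ttr, Rbp4, Apoa1, Apob, Apoe, Amn and Cubn. They were chosen by name, as a set known from textbook biology, but with earlier results of these data known. Counts of members called are therefore a description. Each member was found as 1 row among 55141 genes. Of the 9 genes, 7 encode secreted proteins, whereas Amn and Cubn encode the subunits of a membrane receptor. The set is thus broader than its working name of secreted proteins. Their levels were followed through 22 RNA-seq libraries in 10 groups, all derived from mouse embryonic stem (mES) cells of wild-type genotype or of a genotype labelled Hox-/-, which is stated to lack all Hox function.

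Stem cells of each genotype gave 2 libraries. Their medium held LIF (100 ng/ml) and inhibitors of the kinases GSK-3 and MEK, CHIR99021 (3 µM) and PD0325901 (1 µM). Endoderm cultures of each genotype gave 3 libraries. These were adherent cultures that received 100 ng/ml of Activin A, a ligand that drives endoderm formation, together with 3 µM of CHIR99021, and were collected at 120 h. Gastruloids are balls of stem cells that develop in culture and form tissues resembling those of the early embryo. Activin A gastruloids were made from both genotypes and Chiron gastruloids from wild type, each with 2 libraries from 96 h and 2 from 120 h. The labels give no doses for them. The labels call the endoderm cultures and the gastruloids mixed cells. The number of clones per genotype is not given, so genotype and clone cannot be told apart. They also do not say whether replicates were separate cultures, so p-values measure the spread between these libraries, which may be technical.

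The visceral endoderm surrounds the early embryo and does for it what the liver does later: it secretes carrier proteins and lipoproteins toward the embryo and takes up nutrients from the maternal side. Alpha-fetoprotein (Afp) and albumin (Alb) are related plasma carriers, transthyretin (Ttr) carries thyroid hormone and binds the retinol carrier Rbp4, and apolipoproteins A-I, B and E (Apoa1, Apob, Apoe) are the protein parts of lipoproteins. Cubilin (Cubn) binds proteins for uptake and is brought to the cell surface by amnionless (Amn), working with megalin (Lrp2). In liver and yolk sac many of these genes are controlled by the transcription factors HNF4A, HNF1, FOXA and GATA. Apoe differs from the others in being made by many cell types, macrophages and stem cells included.

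The libraries held 9108085 to 28819301 counts. Depth went with time in the gastruloids, with 14953662 to 28819301 counts at 96 h and 9108085 to 11930416 at 120 h. A count of 0 in a library therefore allows a level of up to 0.104 to 0.329 CPM (counts scaled to a common library total), taking 3 counts as the limit. Such limits and all intervals below cover counting error only, because the tables show no molecular identifiers. In bulk samples of mixed cells, fewer cells of a type and less RNA per cell cannot be told apart. The endoderm transcription factors Sox17, Foxa2 and Gata4 had 24.5, 18.6 and 90.5 CPM in wild-type endoderm cultures, with Gata4 at 1.12 in wild-type mES cells. Other genes of the same lists went the other way. Kit had 142.7 CPM in these cultures and 345 in wild-type mES cells, and Nr5a2 had 7.13 and 142.5. All 19 visceral and all 10 parietal endoderm markers listed had reads in wild-type endoderm cultures, as did all but 2 of the 14 hepatoblast markers. The hepatoblast markers ranged up to the keratins Krt8 and Krt18, at 295 and 241 CPM, and the 2 without a read were Serpina1a and Itih2. Having reads does not by itself mark a cell type. The same cultures also held reads of pluripotency markers, with Nanog at 105 CPM beside 923 in wild-type mES cells. Replicate 2 of both Chiron groups stood above replicate 1 for Apob, Cubn and Apoe beyond counting error, with the values given further on.

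Positions are given on the mouse build GRCm38 (mm10). Alb (chr5:90460897-90476602) and Afp (chr5:90490737-90508907) are neighbours on the plus strand. Apob (chr12:7977648-8016835) and Amn (chr12:111271095-111276426) share a chromosome but are far apart. Apoa1 lies at chr9:46228580-46230466, Apoe at chr7:19696109-19699188, Rbp4 at chr19:38116629-38125281 and Cubn at chr2:13276338-13491813. A gene model on the opposite strand, Gm43449, overlaps Afp and had 0 counts in all 22 libraries. Another, Gm13270, overlaps Cubn and had 0 to 8 counts per library; whether the counting used strand is not given in the sources used here.

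Upstream sequence is shown for 5 members: the adjacent pair Afp and Alb, of which Alb was nearly without reads, and Apoa1, Apob and Cubn, which were lower together in Hox-/- endoderm cultures. Each stretch has 150 bases, is taken from RefSeq sequence of GRCm38.p6 and ends at the base before the earliest annotated start, read 5′ to 3′ on the strand of the gene. RefSeq promoters were matched for 8 members. Capitals mark a match to the HNF1 motif, in Afp, and to TATAAA.
Afp: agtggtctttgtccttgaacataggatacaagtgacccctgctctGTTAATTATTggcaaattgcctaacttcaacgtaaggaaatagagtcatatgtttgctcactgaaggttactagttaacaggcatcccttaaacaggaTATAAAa
Alb: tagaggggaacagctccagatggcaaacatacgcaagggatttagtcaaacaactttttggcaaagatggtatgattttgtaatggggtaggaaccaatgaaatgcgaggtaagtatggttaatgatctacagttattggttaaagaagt
Apoa1: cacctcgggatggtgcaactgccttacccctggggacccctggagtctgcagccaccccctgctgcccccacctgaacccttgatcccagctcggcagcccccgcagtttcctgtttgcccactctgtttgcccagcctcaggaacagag
Apob: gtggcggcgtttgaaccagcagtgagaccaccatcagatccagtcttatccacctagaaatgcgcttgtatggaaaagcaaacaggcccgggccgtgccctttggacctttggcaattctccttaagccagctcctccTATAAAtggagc
Cubn: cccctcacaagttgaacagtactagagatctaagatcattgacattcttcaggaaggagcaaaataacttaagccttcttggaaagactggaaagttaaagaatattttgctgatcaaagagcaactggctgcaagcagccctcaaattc

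The stretches end at 5:90490713 for Afp, 5:90460869 for Alb, 9:46228579 for Apoa1 and 12:7977628 for Apob, all on the plus strand. The Cubn stretch is on the minus strand and spans 2:13491877 to 2:13492026. The HNF1 motif was found 105 to 96 bases before the RefSeq start site in Afp, and in 0.371% of 32851 promoters searched over 250 bases on both strands. TATAAA, searched on the strand of the gene, was found in Afp and Apob and in 7.59% of promoters. The HNF4 motif (CAAAGTCCA, 0.384% of promoters) and the GATA letters AGATAAG (2.74%) were searched on both strands, and no exact match was found in the members' windows. Each motif was searched as a fixed string, so near matches were not counted and a lack of sites cannot be read from this. FOXA letters (TGTTTAC, both strands, 3.17%) matched in Rbp4 alone among the members searched, 241 to 235 bases before its start. These are matches of letters in a window and not measured sites.

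**Figure D1:**
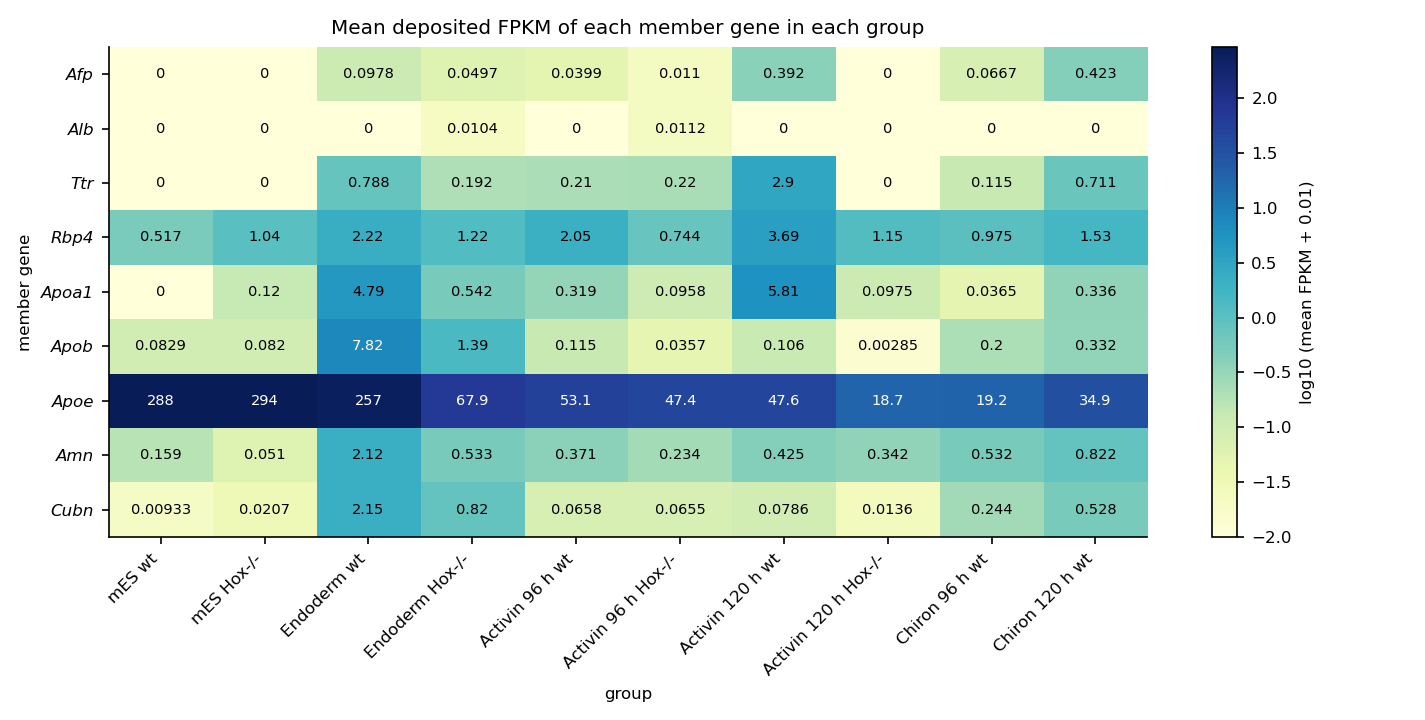
Mean FPKM deposited by the authors for each member gene (rows) in each of 10 groups (columns), 2 or 3 libraries per group, with colour on a log10 scale after adding 0.01. Apoe is the darkest row in every group, at 18.7 to 294 FPKM, and Alb is at 0 in 8 groups.

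Levels of different genes can be compared only per length, in the FPKM values deposited by the authors. On that scale Apoe was first of the 9 genes in all 10 groups, from 18.7 FPKM in Hox-/- Activin A gastruloids at 120 h to 294 FPKM in Hox-/- mES cells. In wild-type endoderm cultures the order was Apoe at 257 ± 12.9 FPKM (SD, n = 3), then Apob at 7.82 ± 3.20, Apoa1 at 4.79, Rbp4 at 2.22, Cubn at 2.15, Amn at 2.12, Ttr at 0.788 and Afp at 0.0978. Rbp4, Cubn and Amn were neighbours in that order with nearly equal means. In wild-type Activin A gastruloids at 120 h the order after Apoe, at 47.6 FPKM, was different: Apoa1 at 5.81, Rbp4 at 3.69, Ttr at 2.90, Amn at 0.425, Afp at 0.392, Apob at 0.106 and Cubn at 0.0786. Apob was thus second of 9 in the wild-type endoderm cultures and among the lowest in the gastruloids.

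Albumin, the main plasma protein of the later liver, was nearly absent. Alb had 2 counts in all 22 libraries together, 1 in a Hox-/- endoderm library and 1 in a Hox-/- Activin A library at 96 h, and it passed no filter. The other genes of the albumin cluster were as low, with no read of Afm in either endoderm group and 3 counts of Gc over the wild-type endoderm libraries. Afp, the fetal member of the family, had 0 to 8 counts per library. Its highest level was 0.872 ± 0.0096 CPM (SD, n = 2) in wild-type Activin A gastruloids at 120 h, from 8 counts in each library.

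**Figure D2:**
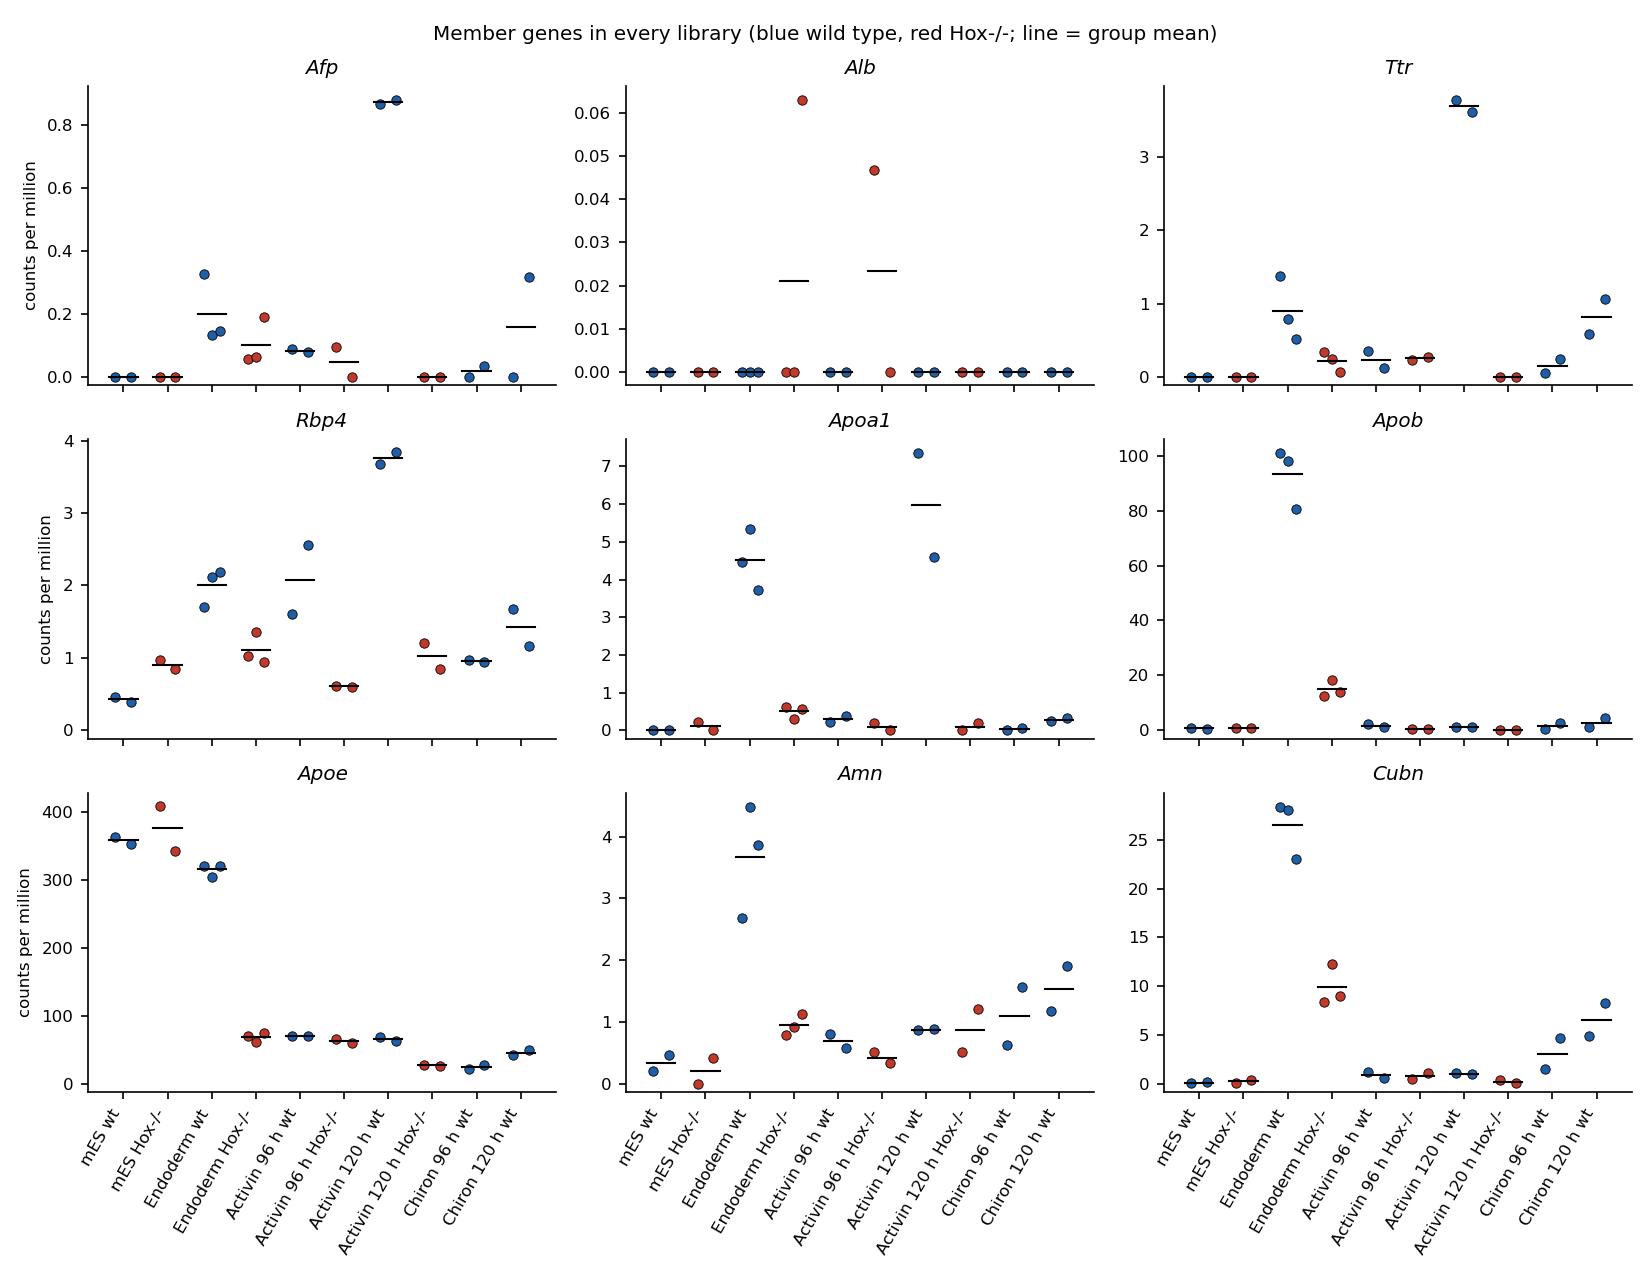
CPM of each member gene in every library, 1 panel per gene with its own linear axis, for 10 groups (blue, wild type; red, Hox-/-; black line, group mean). Afp, Ttr and Rbp4 peak in wild-type Activin A gastruloids at 120 h, Apob, Amn and Cubn peak in wild-type endoderm cultures, and Apoe is highest in mES cells and wild-type endoderm cultures.

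In CPM, which compares 1 gene between groups, the members fell into 3 patterns over the 10 groups. Afp, Ttr, Rbp4 and Apoa1 were highest in wild-type Activin A gastruloids at 120 h, at 0.872, 3.70, 3.76 and 5.98 CPM. For Apoa1 the neighbouring wild-type endoderm cultures, at 4.51 ± 0.812 CPM (SD, n = 3), overlapped that group. Apob, Amn and Cubn were highest in wild-type endoderm cultures, at 93.2, 3.68 and 26.5 CPM, and in each case no library of another group reached the lowest library there. Apoe was highest in mES cells, at 358 ± 7.65 CPM in wild type and 375 ± 46.2 in Hox-/- (SD, n = 2 each), and close to that in wild-type endoderm cultures at 315 ± 8.98 (SD, n = 3).

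The genotype comparison in endoderm cultures asks how the members change when Hox function is missing during directed endoderm formation. All 6 members that could be tested were lower in Hox-/- cultures (edgeR quasi-likelihood test, Benjamini-Hochberg adjustment over all genes, called under 0.05). Among all 14975 genes tested, 46.2% were called and 23.1% were called lower. The 6 genes were Apoa1, Apob, Apoe, Amn, Cubn and Rbp4, with a median log2 change of -2.07 beside 0.00 for all genes tested. Apoa1 passed the filter on low counts through the wild-type group alone, where it is high, so its direction was fixed by the filter, and the count and median are read with that limit. Afp, Alb and Ttr did not pass the filter.

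Apolipoproteins changed most. Apoa1, the main protein of high-density lipoproteins, had 4.46, 5.34 and 3.72 CPM in wild type and 0.625, 0.308 and 0.567 CPM in Hox-/-. Its groups did not overlap, and it was 8.82-fold lower in Hox-/- (log2 change -3.14, SE 0.278, adjusted p = 5.55e-07). Apob, the structural protein of chylomicrons and very-low-density lipoproteins, had 101, 98.3 and 80.5 CPM in wild type and 12.5, 18.4 and 14.1 CPM in Hox-/-. Every Hox-/- library was far below every wild-type one, a 6.18-fold difference (log2 change -2.63, SE 0.113, adjusted p = 3.09e-10). Apoe, a ligand for lipoprotein uptake, had 320, 304 and 320 CPM in wild type and 70.0, 61.6 and 73.8 CPM in Hox-/-. It had the smallest standard error of the 6 and was 4.57-fold lower (log2 change -2.19, SE 0.0638, adjusted p = 4.44e-12).

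The receptor subunits were lower as well. Cubn had 28.4, 28.1 and 23.0 CPM in wild type and 8.35, 12.2 and 9.01 CPM in Hox-/-, with no overlap. It was 2.67-fold lower in Hox-/- (log2 change -1.42, SE 0.126, adjusted p = 5.75e-07). Amn, at 2.68, 4.49 and 3.87 CPM in wild type and 0.795, 0.923 and 1.13 CPM in Hox-/-, was 3.87-fold lower (log2 change -1.95, SE 0.262, adjusted p = 3.23e-05). The change in their partner megalin did not pass the test: Lrp2 had 48.8 ± 5.70 CPM in wild type and 42.3 ± 11.8 in Hox-/- (SD, n = 3 each), with a log2 change of -0.20 (SE 0.140, adjusted p = 0.252). In the other genotype comparisons Lrp2 was called: lower in Hox-/- Activin A gastruloids at 120 h (log2 change -0.67, adjusted p = 0.000161), and higher in Hox-/- at 96 h (0.76, adjusted p = 2.11e-09) and in mES cells (0.63, adjusted p = 6.43e-05). Lrp2 is named here as a direct partner, outside the rule for named genes.

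Among the carriers, Rbp4 had 1.70, 2.11 and 2.19 CPM in wild type and 1.02, 1.35 and 0.945 CPM in Hox-/-. The groups did not overlap and the log2 change was -0.85 (SE 0.258, adjusted p = 0.0149), the smallest of the 6. That call was lost with DESeq2 (adjusted p = 0.0904) and without Hox-/- replicate 3, wild-type replicate 2 or wild-type replicate 3 (adjusted p = 0.0544, 0.0548 and 0.0543). The other 5 calls held under every alternative tried. Ttr, below the filter, had 17, 12 and 7 counts in wild type and 6, 4 and 1 in Hox-/-, a CPM ratio of 0.253 (95% counting interval 0.116 to 0.508). Afp had 4, 2 and 2 counts in wild type and 1, 1 and 3 in Hox-/-, a difference not detectable at this depth (ratio 0.518, 0.133 to 1.79).

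**Figure D3:**
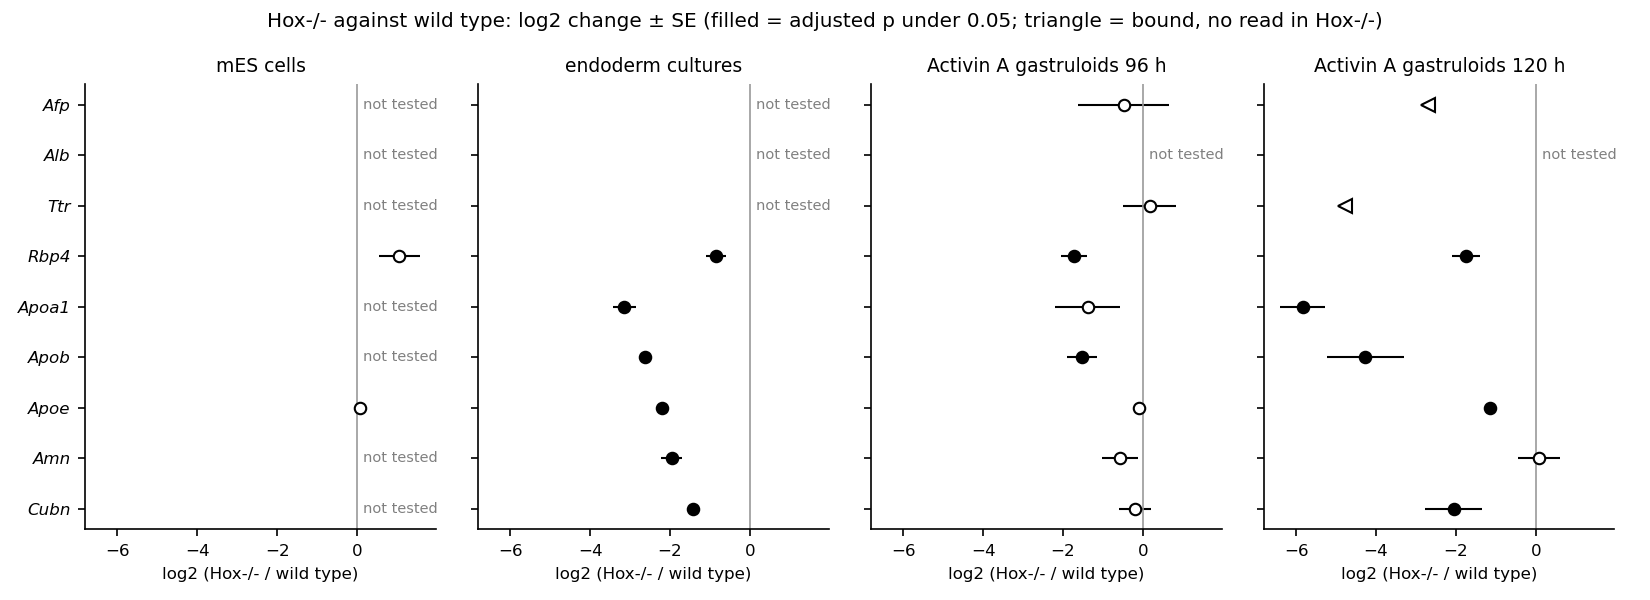
Log2 change of each member gene between Hox-/- and wild type with its standard error, in 4 comparisons; filled points have an adjusted p under 0.05, open points do not, and open triangles are bounds for genes with no read in Hox-/-. Every filled point and both bounds lie left of 0, and mES cells have no filled point.

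Genes that build lipoproteins and the regulators of hepatic genes were examined as lists. In endoderm cultures, where 23.1% of all genes were called lower and 23.1% higher, 9 of 15 tested genes of lipoprotein assembly and exchange were lower in Hox-/- and 3 were higher, with a median log2 change of -0.31. The lower ones included Apoc1 (log2 change -1.91), Apoa4 (-2.90) and Soat2 (-1.80), the enzyme that esterifies cholesterol in liver and intestine. Mttp, which loads lipid onto apolipoprotein B and is named here for that role, outside the rule, differed less than Apob, at 20.9 ± 2.87 CPM in wild type and 16.7 ± 1.68 in Hox-/- (SD, n = 3 each; log2 change -0.31, adjusted p = 0.0258). The neighbours Apoa4 and Apoc1 lie in the Apoa1 and Apoe gene clusters. Apoa4 had 2.49 CPM in wild type and 0.320 in Hox-/-, and Apoc1 had 6.82 and 1.80 CPM. The other cluster genes, Apoc3, Apoa5, Apoc2 and Apoc4, had 0 to 22 counts over 3 libraries and were not tested.

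Of 10 genes of the endocytic receptor list, 4 were lower in Hox-/- endoderm cultures and none was higher, so the share called was below the 46.2% of all genes called. They were Dab2 (log2 change -1.08), the adaptor that links megalin to clathrin, Myo6 (-1.54), the motor that moves endocytic vesicles, Lrpap1 (-0.50), the chaperone of megalin, and Pdzk1 (-0.81). Of 5 genes around retinol and thyroid hormone transport, 2 were lower, among them Crabp2 (-0.62), while Stra6 (1.71), the receptor for retinol-loaded Rbp4, and Crabp1 (0.26) were higher. Transcription factors of the hepatic and visceral endoderm programme were lower in 11 of 18 cases and higher in 4, with a median of -1.19. Hnf4a fell from 15.4 to 2.27 CPM (log2 change -2.76), Foxa2 from 18.6 to 4.19 (-2.15) and Gata4 from 90.5 to 33.0 (-1.45).

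Cell type markers also differed between genotypes in endoderm cultures, and their part in the differences above was not tested. Among all genes tested there, 23.1% were called lower and 23.1% higher. Visceral endoderm markers were lower in Hox-/- cultures for 14 of 17 tested and higher for 1. Their summed level ran from 334 to 410 CPM in wild type and from 154 to 200 in Hox-/-. Of 16 definitive endoderm markers, 16 were lower. Parietal endoderm markers split evenly, with 3 lower and 3 higher of 9, and sums of 1258 to 1278 and 1317 to 1344 CPM. Of 9 pluripotency markers 8 were lower. These lists share genes with each other and with the regulators. Markers with few reads in Hox-/- could pass the filter through wild type alone, so the marker counts are a description.

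In Activin A gastruloids at 120 h, 7 of the 8 members tested were lower in Hox-/-, beside 50.4% of 16831 genes called and 25.5% called lower. The median log2 change of the 8 was -3.16, beside -0.02 for all genes tested. Afp, Ttr and Apoa1 passed the filter through the wild-type group at this time, where they were high. Apob and Cubn may have passed it through wild type alone. This count and this median therefore say nothing beyond the members' own values. Alb was not tested.

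The carriers Ttr and Afp were read in wild type and had no read in Hox-/-. Ttr had 35 and 33 counts in wild type (3.78 and 3.62 CPM) and 0 in both Hox-/- libraries, at least 27.5-fold lower with 3 counts over the group as the floor (adjusted p = 2.99e-11). Afp had 8 and 8 counts against 0 and 0, at least 6.48-fold lower (adjusted p = 8.98e-05). Rbp4 was read in every library, with 3.67 and 3.84 CPM in wild type and 1.21 and 0.842 CPM in Hox-/-. It was 3.36-fold lower in Hox-/- without overlap (log2 change -1.75, SE 0.347, adjusted p = 3.12e-05).

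The apolipoproteins were called lower as well, but only Apoe had many reads in both genotypes. Apoa1 passed the filter through wild type, and Apob may have, so no joint fall is read from them. Apoa1 had 68 and 42 counts in wild type (7.35 and 4.61 CPM) and 0 and 2 in Hox-/-, a CPM ratio of 0.015 (95% counting interval 0.00179 to 0.0554; adjusted p = 1.58e-12). Apob, which was low in both genotypes, had 10 and 10 counts in wild type and 1 and 0 in Hox-/-, a ratio of 0.0412 (0.000993 to 0.257; adjusted p = 0.000179). Apoe had 68.4 and 62.9 CPM in wild type and 28.0 and 26.5 CPM in Hox-/-, a 2.23-fold difference with no overlap (SE 0.0770 on the log2 scale, adjusted p = 4.02e-18). The Apob call was lost in limma on log2(FPKM + 1), a scale that shrinks low genes (log2 difference -0.14, adjusted p = 0.0559).

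Of the receptor subunits, 1 passed the test at this time, and the difference between them was not tested. Cubn had 10 and 9 counts in wild type and 4 and 1 in Hox-/-, a log2 change of -2.06 (SE 0.709, adjusted p = 0.0131). That call was lost with DESeq2 (adjusted p = 0.0872), with limma (0.0513), and without Hox-/- replicate 2 (0.162) or wild-type replicate 1 (0.0598). Amn had 8 and 8 counts in wild type and 6 and 13 in Hox-/-, so the groups overlapped (log2 change 0.08, SE 0.517, adjusted p = 0.920). The 95% counting interval of its CPM ratio ran from 0.476 to 2.03.

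At 96 h the genotype difference of Apoe was smaller than at 120 h, whereas that of Rbp4 was nearly equal. For Afp, Ttr and Apoa1 a larger difference at 120 h was built in by the filter. Of 8 tested, 2 were lower in Hox-/-, beside 38.9% of genes called and 16.7% called lower, with a median of -0.53 beside 0.03 for all genes. For Apob, among these 2, every Hox-/- library was below every wild-type library over both times. It may have passed the filter through wild type alone, so nothing is read from this count or median. Rbp4 had 1.60 and 2.56 CPM in wild type and 0.608 and 0.602 CPM in Hox-/-, without overlap (log2 change -1.73, SE 0.330, adjusted p = 2.75e-05). Apob had 2.22 and 1.163 CPM in wild type and 0.608 and 0.468 CPM in Hox-/-, also without overlap (log2 change -1.53, SE 0.373, adjusted p = 0.000812). Both calls were lost in limma on log2(FPKM + 1), with adjusted p = 0.0575 and 0.171. The Apob call was also lost with DESeq2 (0.0931) and without wild-type replicate 1 (0.100).

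The remaining members did not pass the test at 96 h. Apoe had 70.6 and 69.6 CPM in wild type and 66.2 and 60.2 CPM in Hox-/-, a log2 change of -0.09 (SE 0.0517, adjusted p = 0.177). Ttr had 8 and 3 counts in wild type and 5 and 4 in Hox-/-, and the libraries overlapped. Apoa1 had 5 and 10 counts against 4 and 0 (log2 change -1.38, adjusted p = 0.174); without Hox-/- replicate 1, which leaves a lone library at 0, it was called (adjusted p = 0.0402). Cubn (log2 change -0.20), Amn (-0.58) and Afp (-0.48) had adjusted p of 0.724, 0.331 and 0.770.

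The change of the genotype difference from 96 h to 120 h was tested as an interaction in the same fit. It was called for 4 of 8 members, all toward a lower level in Hox-/- at 120 h, beside 38.9% of genes called and 20.2% called in that direction. Afp, Ttr and Apoa1, which are among the 4, entered through the wild-type group at 120 h, so nothing is read from this count. For Apoe, which had 283 counts or more in every library, the interaction was -1.07 on the log2 scale (SE 0.0933, adjusted p = 1.47e-13). Afp, Ttr and Apoa1 were also called (adjusted p = 0.0367, 5.06e-06 and 0.0113), but their fitted sizes rest on groups with 0 to 2 counts and depend on the prior count. The Afp call was lost with no filter on low counts (adjusted p = 0.109) and without either Hox-/- library at 120 h, Hox-/- replicate 1 at 96 h or either wild-type library at 96 h. The Apoa1 call was lost without Hox-/- replicate 1 at 120 h (0.0656) or at 96 h (0.832).

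By time, wild-type Activin A gastruloids were compared between 96 h and 120 h. Of 8 tested members 4 rose and 1 fell, beside 74.9% of all genes called, with 37.2% called higher and 37.8% called lower. For Afp, Ttr and Apoa1 a rise was built in by the filter, which they passed through the later group, and their values are a description. Apoa1 rose 17.9-fold (adjusted p = 1.36e-14), Ttr 14.9-fold (4.34e-12), Afp 9.19-fold (8.10e-05) and Rbp4 1.69-fold (0.00745). Apoe was 1.12-fold lower (adjusted p = 0.00940). The Rbp4 call was lost with DESeq2 (0.164) and without replicate 1 at 96 h (0.132), and the Apoe call with library totals alone (0.148), with limma (0.128) and without replicate 2 at 120 h (0.236).

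In Hox-/- Activin A gastruloids the calls over the same interval went down. Ttr, Apob, Apoe and Cubn were lower at 120 h, 4 of 8 tested, beside 72.4% of genes called and 37.6% called lower. Apoe went from 66.2 and 60.2 CPM at 96 h to 28.0 and 26.5 CPM at 120 h, 2.36-fold lower (adjusted p = 2.71e-21). Ttr went from 5 and 4 counts to 0 and 0, at least 1.84-fold lower (adjusted p = 0.0103), and Apob from 13 and 7 counts to 1 and 0 (adjusted p = 0.00265). Cubn went from 11 and 16 counts to 4 and 1 (adjusted p = 0.0214). The Ttr call was lost without either library at 120 h (0.0736 and 0.0636), the Apob call with limma (0.414) and without replicate 2 at 120 h (0.0540), and the Cubn call with DESeq2 (0.0948), with limma (0.0719) and without replicate 2 at 120 h (0.228) or at 96 h (0.194). Depth falls with time in these libraries, so time and depth cannot be told apart as sources of a change in genes with few reads.

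Other genes of the same lists were examined in the gastruloids at 120 h, where 25.5% of all genes were called lower. Of 9 tested liver plasma protein genes 6 were lower in Hox-/- and none was higher, but those with few or no reads in Hox-/- passed the filter through wild type, so nothing is read from the count. Vtn, which encodes vitronectin, had 24.1 CPM in wild type and 1.21 in Hox-/- (log2 change -4.20, adjusted p = 3.18e-22). Ambp, which encodes bikunin, and Proc, which encodes protein C, had 2.78 and 1.36 CPM in wild type and no read in Hox-/-. In the Apoa1 cluster, Apoa4 had 20 counts in wild type and 2 in Hox-/-, and in the Apoe cluster Apoc1 had 16 and 5. Among lipoprotein genes 7 of 15 were lower and 3 higher, with Scarb1, the receptor for high-density lipoprotein, lower (-1.24) and the exporter Abca1 higher (1.31). Mttp did not differ detectably, at 14.7 ± 2.24 CPM in wild type and 13.5 ± 0.490 in Hox-/- (SD, n = 2 each; adjusted p = 0.993).

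Regulators and markers also differed between genotypes in the gastruloids, and their part was not tested. Among all genes, 16.7% were called lower and 22.2% higher at 96 h, and 25.5% and 24.9% at 120 h. Genes with few reads in Hox-/- could pass the filter through wild type alone, so the counts of regulators and markers are a description. At 120 h, 9 of 17 regulators were lower in Hox-/- and 5 higher. Foxa2 went from 63.1 to 1.93 CPM (log2 change -4.92), Sox17 from 57.4 to 3.78 (-3.80) and Hnf4a from 3.59 to 0.180 (-4.16). At 96 h, when Rbp4 and Apob were the members called, 11 of 17 were lower and 1 higher, Sox17 by 4.79 and Foxa2 by 3.02 on the log2 scale. Definitive endoderm markers were lower for 14 of 18 at 96 h and 16 of 18 at 120 h. Visceral endoderm markers were lower for 4 and higher for 3 of 15 at 96 h, and lower for 10 and higher for 3 at 120 h, with sums of 216 CPM in wild type and 102 to 108 in Hox-/- at the later time. Parietal endoderm markers were higher for 4 and lower for 3 of 7 at 120 h. Presomitic and somite markers, which belong to another germ layer, were higher for 8 of 8 in Hox-/- at 120 h.

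In mES cells none of the 2 members tested was called between genotypes by edgeR, and 1, Rbp4, had an unadjusted p under 0.05; DESeq2 also called none. Beside this, 23.2% of 13631 genes were called. Apoe had 363 and 352 CPM in wild type and 408 and 343 CPM in Hox-/-, which overlapped (log2 change 0.07, SE 0.0522, adjusted p = 0.372). Leaving out Hox-/- replicate 2 made Apoe a call (0.19, adjusted p = 0.000153), and leaving out replicate 1 turned its sign (-0.07). Rbp4 had 7 and 5 counts in wild type and 13 and 10 in Hox-/- (log2 change 1.06, SE 0.506, adjusted p = 0.128). Apob had 12 and 8 counts against 9 and 9, and the others had 0 to 6 counts per library.

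Endoderm cultures were compared with mES cells in 1 joint fit of both tables; culture and any batch cannot be told apart there. In wild type 7 of 7 members tested were called, 6 of them higher, beside 79.9% of genes called, with 41.6% called higher and 38.3% lower. Apoa1, Ttr, Amn and Cubn passed the filter through endoderm cultures, so a rise was built in for them and nothing is read from this count or from the same count in Hox-/-. Cubn, with 3 counts over the mES libraries, was 247-fold higher by CPM (95% counting interval 84.2 to 1200), and Apob was 119-fold higher (log2 change 6.89, adjusted p = 9.45e-17). Apoa1 had no read in wild-type mES cells and was at least 42.3-fold higher, and Ttr at least 8.13-fold. Amn was 10.3-fold and Rbp4 4.25-fold higher. Apoe was 1.23-fold lower (log2 change -0.30, SE 0.0686, adjusted p = 0.000490).

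In Hox-/-, 6 of 7 members were called in the same step, 5 of them higher, beside 80.6% of genes called and 42.7% called higher. Apob was 19.7-fold higher in endoderm cultures, Cubn 37.9-fold and Amn 4.37-fold. Apoa1, with 25 counts against 3, had a CPM ratio of 4.24 (95% counting interval 1.29 to 21.9). Apoe was 5.80-fold lower, and Rbp4 did not pass the test (log2 change 0.20, adjusted p = 0.605). The Apoa1 call was lost with DESeq2 (0.0643) and without Hox-/- endoderm replicate 1 (0.0791) or 3 (0.0601) or Hox-/- mES replicate 2 (0.241), the Amn call without Hox-/- mES replicate 1 (0.151), and the Ttr call, at 11 counts against 0, without endoderm replicate 1 (0.0664) or either mES library (0.107 and 0.0901). The difference between the genotypes in this step was called for 4 of 7 members, beside 24.1% of genes called and 12.5% called lower. It was -2.24 for Apoe (SE 0.101, adjusted p = 1.00e-11), -2.59 for Apob (SE 0.663, adjusted p = 0.00710) and -1.89 for Rbp4 (SE 0.536, adjusted p = 0.0139). Apoa1 was called as well, with a fitted size that rests on mES groups of 0 and 3 counts, and the call was lost without Hox-/- mES replicate 1. The Apob call was lost without Hox-/- mES replicate 2 (0.0608), and the Rbp4 call with DESeq2 (0.0661) and without Hox-/- mES replicate 1 (0.0724) or wild-type mES replicate 2 (0.0619). For Cubn the difference did not pass the test (-2.48, adjusted p = 0.130).

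Activin A and Chiron gastruloids of wild type were compared at each time. The wild-type Activin A libraries also serve the genotype comparisons, so the 2 sets of values are not independent. At 120 h, 5 of 8 members were higher with Activin A and 1 lower, beside 41.9% of 17305 genes called, with 20.3% called higher and 21.6% lower. Afp, Ttr and Apoa1 passed the filter through Activin A gastruloids at 120 h, where they are high, so nothing is read from this count. Apoa1 had 68 and 42 counts with Activin A and 3 and 3 with Chiron, a CPM ratio of 21.3 (95% counting interval 9.49 to 59.4; adjusted p = 4.72e-08). Ttr had 3.78 and 3.62 CPM against 0.587 and 1.06 (4.45-fold, adjusted p = 0.000160), and Rbp4 had 3.67 and 3.84 CPM against 1.68 and 1.17 (2.50-fold, adjusted p = 0.00242). These groups did not overlap. Apoe had 68.4 and 62.9 CPM against 42.1 and 49.4 (1.39-fold, adjusted p = 0.000291).

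The Afp difference at 120 h depended on the table used. By counts it had 8 and 8 with Activin A and 0 and 3 with Chiron (adjusted p = 0.0159). That call was lost with DESeq2 (0.181) and without either Activin A library (0.0713 and 0.0772) or Chiron replicate 1 (0.248). In the FPKM values deposited by the authors the group means were 0.392 and 0.423, and the log2 difference in limma was 0.03 (adjusted p = 0.995). The Chiron mean came from replicate 2 alone, with 0 and 0.8465 FPKM, beside 0.390 and 0.394 with Activin A. The Apoe call was lost in limma as well (0.0638).

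Cubn went the other way. It had 10 and 9 counts with Activin A and 58 and 78 with Chiron at 120 h, 6.39-fold lower with Activin A (log2 change -2.68, SE 0.497, adjusted p = 0.000127). At 96 h it had 28 and 15 counts with Activin A and 31 and 134 with Chiron (log2 change -1.92, SE 0.398, adjusted p = 0.000221). The 120 h call held without either Chiron library. The 96 h call was lost without Chiron replicate 2 (-0.79, adjusted p = 0.0942) and in limma (0.181). Amn pointed the same way without passing the test at either time (-0.82 and -0.83, adjusted p = 0.0648 and 0.202), as did Apob at 120 h (-1.30, adjusted p = 0.112). Lrp2 was higher with Activin A at both times (0.91 and 0.79).

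At 96 h, 3 of 8 members were higher with Activin A and 1 lower, beside 61.6% of genes called, with 31.3% called higher and 30.2% lower. Apoe had 70.6 and 69.6 CPM against 21.7 and 28.1 (2.66-fold, adjusted p = 5.61e-13), and Rbp4 had 1.60 and 2.56 CPM against 0.973 and 0.937 (2.11-fold, adjusted p = 0.00204). Apoa1 had 5 and 10 counts against 0 and 2, a ratio of 7.66 (1.78 to 69.1; adjusted p = 0.0116). The Apoa1 call was lost without Activin A replicate 2 (0.105) or Chiron replicate 1 (0.0632), the Rbp4 call without Activin A replicate 2 (0.0969), and both in limma (0.257 and 0.0670). Between 96 h and 120 h the treatment difference of Apoe shrank (interaction -0.93 on the log2 scale, SE 0.128, adjusted p = 3.00e-06), 1 call in 8 members beside 39.6% of genes called and 18% called lower.

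Chiron gastruloids were compared between the same times. Of 8 tested, 4 were higher at 120 h than at 96 h, beside 61.7% of genes called and 28.5% called higher. Apoe rose 1.68-fold (adjusted p = 4.34e-07), Ttr from 1 and 7 counts to 7 and 10 at a lower depth (4.45-fold, adjusted p = 0.00593), and Cubn 1.83-fold (adjusted p = 0.0220). Apoa1 had 0 and 2 counts against 3 and 3 (adjusted p = 0.0488). The Apoe call alone held throughout: Ttr was lost without replicate 2 at 120 h (0.106), Cubn with DESeq2 (0.0894), in limma (0.0816) and without replicate 2 at 120 h (0.370) or replicate 1 at 96 h (0.133), and Apoa1 with DESeq2 (0.0713), in limma (0.218), with the replicate number as a block (0.0541) and without replicate 1 or 2 at 120 h (0.126 and 0.169) or replicate 1 at 96 h (0.15).

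**Figure D4:**
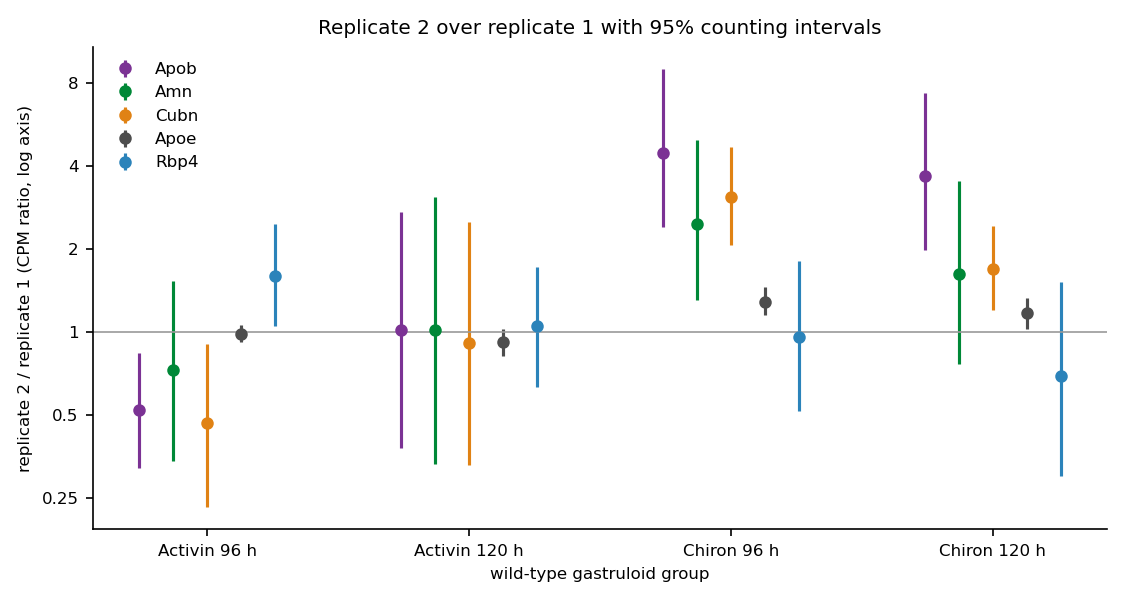
Ratio of CPM in replicate 2 over replicate 1 for 5 members in the 4 wild-type gastruloid groups, with 95% counting intervals on a log2-spaced axis. In both Chiron groups Apob, Amn, Cubn and Apoe lie above 1, up to 4.46 for Apob, while Rbp4 lies at 0.963 and 0.696.

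The 2 Chiron libraries of each time differed beyond counting error for Apob, Cubn and Apoe, and those of 96 h for Amn. Apob had 0.584 and 2.60 CPM in replicates 1 and 2 at 96 h and 1.17 and 4.35 CPM at 120 h, ratios of 4.46 (95% counting interval 2.41 to 9.01) and 3.70 (1.98 to 7.36). Cubn had 1.51 and 4.65 CPM at 96 h (ratio 3.08, 2.07 to 4.71) and 4.86 and 8.27 at 120 h (1.70, 1.20 to 2.43). Amn had 0.633 and 1.56 CPM at 96 h (2.47, 1.31 to 4.99), while its interval at 120 h spanned 1 (ratio 1.63, 0.764 to 3.53). Apoe differed less, with ratios of 1.29 (1.15 to 1.46) at 96 h and 1.17 (1.03 to 1.33) at 120 h. Only 0.451% of 13963 genes at 96 h and 0.883% of 13823 genes at 120 h differed by more than 2-fold between these replicates. Differences beyond counting error were not confined to Chiron gastruloids. In wild-type Activin A gastruloids at 96 h the ratios of Apob and Cubn went below 1, at 0.523 and 0.467, and that of Rbp4 was 1.6 (1.05 to 2.47). Apoa1 had a ratio of 0.627 (0.417 to 0.935) in wild-type Activin A gastruloids at 120 h. Apoe had 0.84 (0.806 to 0.875) in Hox-/- mES cells. The labels give no difference between these replicates.

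Of the members, Apob, Apoe and Cubn reached 10 CPM in a group, and for these the genes most alike over the 10 groups were found by Pearson's r of group means of log2(CPM + 1). The 10 means share libraries, genotypes and depth, so r is a description only. Apob was most like Ankrd1 (r = 0.97), Cxcl10 (0.96) and Exd1 (0.94). Apoe was most like Erich1 (0.98), Eef2kmt (0.97) and Lrpap1 (0.97), and Cubn was most like Sirt2 (0.95), Pwwp2b (0.92) and Mtmr6 (0.91). The median log2 change of tested genes within 5 Mb of each member lay between -0.08 and 0.21 in the genotype comparisons of endoderm cultures and gastruloids.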

How the data were processed

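Poly(A) RNA was sequenced in 22 libraries, and the labels' protocols describe the kit as stranded. The submitters' processing notes name cutadapt 1.16, STAR 2.7.7a, Cufflinks 2.2.1 and mm10; the tool that made the counts and its use of strand are not given in the sources used here. Raw read counts per gene were used as the authors deposited them. FPKM values were used as deposited by the authors, normalized to gene length and depth. Counts of 55141 genes were joined to gene symbols by gene ID. The 9 members and all other gene lists were chosen with earlier results of these data known.

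CPM was computed from library totals of 9108085 to 28819301 counts. Groups were compared with edgeR 4.0.16 in R 4.3.3 (quasi-likelihood test, TMM, filterByExpr), fitted separately on the tables of mES cells, endoderm cultures, Activin A gastruloids with both genotypes, and wild-type gastruloids with both treatments, and jointly for endoderm cultures with mES cells. Every adjusted p is from that test unless another tool is named, with Benjamini-Hochberg adjustment over all genes tested and a threshold of 0.05. Alternatives were DESeq2 1.42.0, limma 3.58.1 on log2(FPKM + 1), RLE size factors, library totals alone, no filter, fits on the 2 groups compared only, a replicate block and leaving out each library. The edgeR step was tested on simulated data. All members were named in every comparison; for each list up to 5 called genes with the smallest p could be named, along with the genes of the albumin, Apoa1 and Apoe clusters, the 3 genes most like a member, and levels of list genes. Lrp2, Mttp, and list genes named outside that rule were chosen after their values were seen. Values of some list genes are not reported here.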

Additional observations from a re-analysis of the deposited data

Results flagged for a closer look

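In 9 cases a test of the difference between groups passed the threshold (edgeR interaction terms, log2 scale, adjusted p under 0.05). The genotype difference in Activin A gastruloids differed between 96 h and 120 h by -1.07 for Apoe, by -4.45 for Apoa1, by -8.94 for Ttr and by -6.22 for Afp. The last 3 values rest on groups with 0 to 2 counts, and their size depends on the prior count. The difference between Activin A and Chiron changed with time by -0.93 for Apoe. The step from mES cells to endoderm cultures differed between genotypes by -2.24 (-2.235) for Apoe, by -2.59 for Apob, by -1.89 for Rbp4 and by -7.06 for Apoa1, the last with 0 counts in wild-type mES cells.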

How the results depend on the processing

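Of 101 member values tested, 60 were called. None of the 60 changed direction under any alternative run, 34 kept the call under all of them and 26 lost it under at least 1. Of the 41 values not called, 22 changed sign and 16 were called under at least 1 alternative. Deviations of same-numbered libraries had correlations of -0.0701 to 0.106 over all genes tested. With so few libraries per group these values cannot exclude a pairing by replicate number. For Apob, Cubn and Apoe, replicate 2 stood above replicate 1 in both Chiron groups. With the replicate number as a block, 100 of 101 member values had the same call, and Apoa1 over time in Chiron gastruloids lost it (2.45). At a depth of 9108085 to 28819301 counts, Alb was tested nowhere, and Afp and Ttr were not tested between genotypes in endoderm cultures. Where leaving out 1 library left 1 in a group, that sample was assumed to vary like the others.

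Counts of members called moved as follows. Between genotypes at 96 h DESeq2 called 1 and limma 0. Over time in Hox-/- gastruloids the fit on the 2 groups called 1 and limma 2. Between treatments at 96 h limma called 1. Over time in Chiron gastruloids DESeq2, the fit on the 2 groups and limma each called 2. For treatment and time limma called 3, and the fit with no filter called 2. Signs turned for Amn between genotypes at 120 h (-0.031 with library totals, -0.09 with limma), Apoa1 over time in Hox-/- (0.0021, limma), Rbp4 in genotype by time (0.0633, no filter), and at 96 h between treatments for Afp (-0.0339, limma) and Apob (0.0313, DESeq2). The cause was not tested.

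Leaving out each library in turn gave these ranges of members called: 0 to 1 between genotypes in mES cells, 1 to 4 between genotypes at 96 h, 3 to 6 over time in wild type and 1 to 4 in Hox-/- with Activin A, 1 to 6 over time with Chiron, 2 to 4 between treatments at 96 h, 2 to 5 for genotype by time, 1 to 3 for treatment by time and 2 to 4 for genotype by culture. Log2 ranges crossed 0 between genotypes for Apoe in mES cells (-0.07 to 0.19), for Afp (-3.44 to 0.21), Ttr (-0.46 to 1.09) and Cubn (-0.73 to 0.41) at 96 h, and for Amn at 120 h (-0.63 to 0.59). Over time they did for Cubn in wild type (-0.34 to 0.74) and Apoa1 in Hox-/- (-3.98 to 3.57), with Afp in Hox-/- at -3.73 (-3.725) to 0. With Chiron they did for Afp (-2.03 to 4.18), Apob (-0.65 to 2.06) and Amn (-0.13 to 1.16). Between treatments at 96 h they did for Ttr (-0.47 to 2.03), Apob (-0.67 to 1.46) and Amn (-1.21 to 0.0784). In genotype by time they did for Rbp4 (-0.40 to 0.27) and Amn (-0.0461 to 1.17). In treatment by time they did for Afp (-0.98 to 5.23), Apoa1 (-0.98 to 2.32), Rbp4 (-0.0536 to 0.62) and Amn (-0.89 to 0.40), and in genotype by culture for Amn (-2.31 to 3.40).

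Over all genes, 3168 were called between genotypes in mES cells, against 954 with DESeq2, 52 with limma, and 1477 and 1690 without wild-type replicate 1 or 2. In Activin A gastruloids at 96 h 6546 were called, against 3195 with DESeq2 and 3078 with limma, and 6544 in genotype by time, against 4128 with DESeq2.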
